A study of Mus musculus with 9 samples.

Results

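The EGF receptor (ErbB) family and its ligands were examined as 10 genes of the 35275 listed in the table of counts. The genes were chosen by name and found through their Ensembl identifiers, and all 10 were in the table. They are the 4 receptors *Egfr*, *Erbb2*, *Erbb3* and *Erbb4* and the 6 ligands *Areg*, *Ereg*, *Hbegf*, *Tgfa*, *Btc* and *Nrg1*. RNA was sequenced from 9 mammary gland tumors of mice with the genotype Brca1Co/Co;MMTV-Cre;p53+/-, with 3 tumors per group. The saline group was the control, and the treated groups received Talazoparib, a PARP inhibitor, at 0.33 mg/kg per dose. It was given as the free drug (i.v. TLZ) or in a nanoparticle formulation (NanoTLZ). All 3 groups, saline included, were dosed by i.v. injection. Each animal had 5 doses at 3 per week, begun once its tumor measured 4 to 5 mm across. All 3 groups, saline included, carried the conditional *Brca1* allele, the Cre transgene under the MMTV promoter, which is active in mammary epithelium, and a single working copy of p53. The data therefore hold no *Brca1*-proficient tumor and no normal gland, and tumors given empty nanoparticles were not analysed here, so drug and carrier cannot be told apart in NanoTLZ. The labels name no animal or batch beyond the tumor itself, and the p-values below set group differences against the spread between tumors within groups.

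ErbB receptors are tyrosine kinases of the cell surface that form pairs when a ligand binds. *Egfr* binds the ligands of the EGF group, *Erbb3* and *Erbb4* bind neuregulins, and *Erbb2* has no known ligand of its own and acts as the partner of the others. The ligands are made as membrane proteins and are cut loose by proteases, and the active receptors feed the RAS-ERK and PI3K-AKT cascades. In the mammary gland, amphiregulin from *Areg* carries the signal for duct growth in puberty, and *ERBB2* is the gene amplified in HER2-positive breast cancer.

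The libraries held 17538380 to 21194980 counts on genes. Of 35275 genes, 15821 passed the filter on low counts and were tested in 1 edgeR quasi-likelihood fit to all 9 tumors, and 9 of the 10 ErbB genes were among them. *Brca1* itself was listed at 32.6, 29.6 and 42.7 CPM (counts scaled to library size after TMM) in saline, at 11.8, 9.46 and 31.5 CPM after i.v. TLZ and at 18.4, 18.2 and 19.8 CPM after NanoTLZ, and a count over the whole gene does not check the deleted exons. The defining markers of luminal epithelium were present in every tumor, with a summed level of 3743 to 8033 CPM over 9 genes. Of these 9, 2 were lower in each treated tumor than in each saline tumor, against 2.66% of all genes. They were *Elf5* and *Ehf*, transcription factors of the luminal lineage. Their log2 fold changes were -1.01 ± 0.24 and -0.93 ± 0.22 for the mean of both treatments (adjusted p = 0.271 for each in edgeR). The other genes of the list overlapped, and *Krt7* and *Krt18* had values above 0. DESeq2 on all tumors called *Elf5* and *Ehf* in that comparison. Of the other marker lists it called 8 skeletal muscle genes, *Top2a*, *Mki67* and *Greb1* there. Over all genes DESeq2 called 273 in that comparison. The edgeR fit called 3, of which 1 was a skeletal muscle gene. The part of *Elf5* and *Ehf* in the values of the ErbB genes was not tested. Other marker lists also differed between the groups, some of them with overlap. The summed level of 10 proliferation genes was 595 to 2134 CPM in saline, 270 to 583 CPM after i.v. TLZ and 392 to 477 CPM after NanoTLZ. Of 9 tested skeletal muscle genes, 8 were lower in every tumor of each treated group than in every saline tumor, against 2.66% of all genes. The sums over the list were 35.5 to 798 CPM in saline and 4.87 to 32.7 CPM in the treated tumors. All 9 macrophage genes had log2 fold changes above 0 in both treatments, but their sums overlapped between saline and each treated group. These sums were 511 to 2097 CPM in saline, 970 to 1960 CPM after i.v. TLZ and 1905 to 2665 CPM after NanoTLZ. The T and NK cell genes summed to 5.44 to 16.4 CPM in saline, 2.57 to 25.5 CPM after i.v. TLZ and 16.6 to 38.1 CPM after NanoTLZ. The summed fibroblast, endothelial, adipocyte, Schwann cell, basal, hormone-sensing luminal and skin keratinocyte markers overlapped between saline and each treated group. RNA came from whole tumors, in which fewer cells of a type and less RNA per cell cannot be told apart. Saline tumor 3 and i.v. TLZ tumor 2 stood apart from the rest in several of the genes below, and log2 fold changes without them are given where they decide a result. Correlations were taken over all 9 tumors only.

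*Erbb2* and *Erbb3* were the abundant receptors of these tumors, *Egfr* was a minor one and *Erbb4* was nearly silent. Levels were compared between genes as CPM per kb of exon. *Erbb2* ranked first among the receptors in 8 of 9 tumors and made up a median of 65.9% of the summed receptor level, with a range of 33.1% to 74.7%. *Erbb3*, whose kinase is weak and which signals through its partner, ranked the second in 8 of 9 tumors and the first in i.v. TLZ tumor 3, where it held 58.1%. *Egfr* was the third in all 9 tumors, at 3.72% to 12.1% of the summed level. Its highest share was in saline tumor 1. *Erbb4* was lowest in all 9 tumors. The mean levels over the 9 tumors were 38.4 CPM per kb for *Erbb2*, 21.2 for *Erbb3* and 3.81 for *Egfr*, which lay at the percentiles 91.6, 83.2 and 43.5 of all tested genes.

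**Figure D1:**
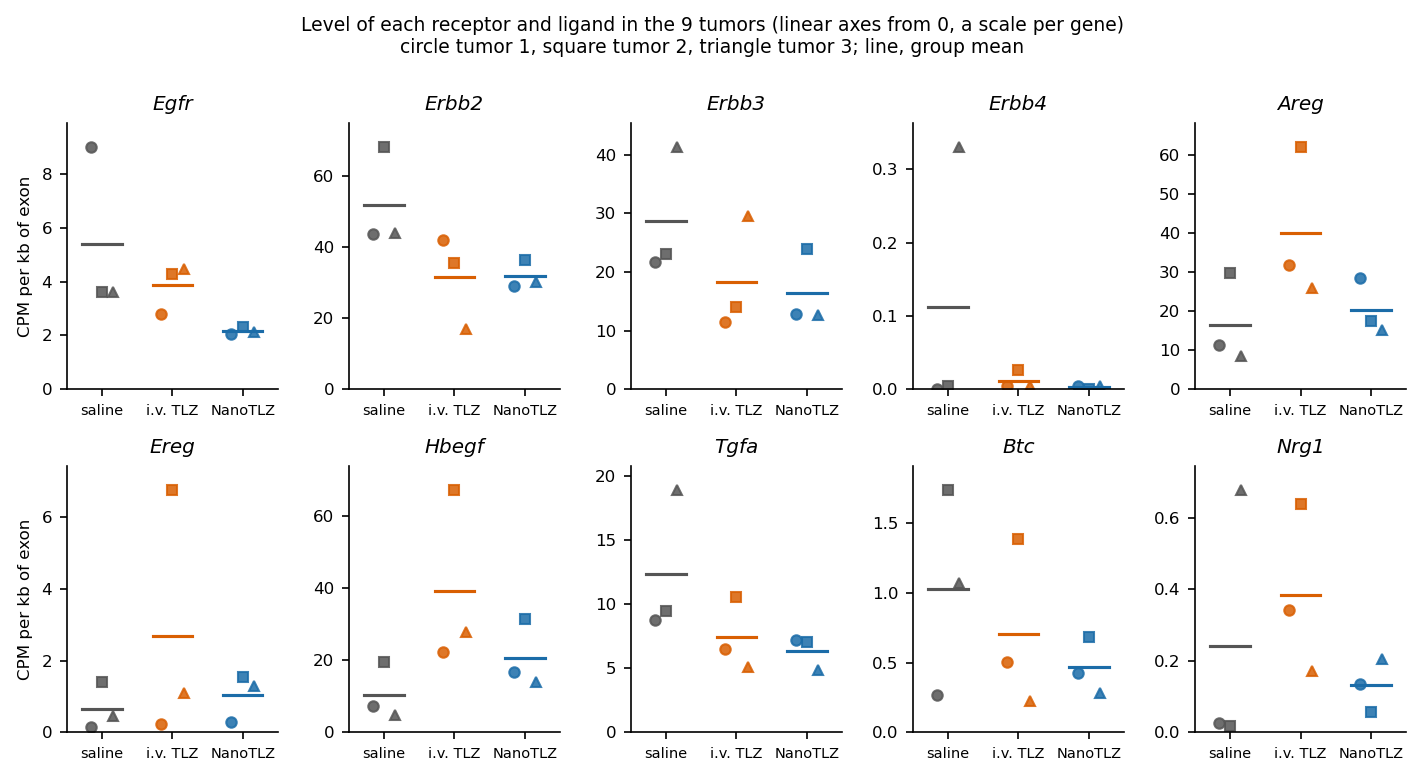
Level of each of the 10 genes in CPM per kb of exon (vertical axes, linear from 0, with a scale per gene) in saline, i.v. TLZ and NanoTLZ tumors; points are tumors, lines are group means and n = 3 per group. *Egfr* was tightly grouped after NanoTLZ and below all other tumors, *Hbegf* was above all saline tumors after i.v. TLZ, and the *Erbb4* signal came from saline tumor 3 with 89 of 100 counts.

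Among the ligands, *Areg*, *Hbegf* and *Tgfa* carried nearly all of the RNA. *Areg* ranked first in 5 of 9 tumors, *Hbegf* (heparin-binding EGF-like growth factor) in 3 and *Tgfa* (transforming growth factor alpha) in 1, which was saline tumor 3. The mean levels were 25.6 CPM per kb for *Areg*, 23.4 for *Hbegf* and 8.71 for *Tgfa*. *Ereg* (epiregulin) had 1.47 CPM per kb, *Btc* (betacellulin) 0.734 and *Nrg1* (neuregulin 1) 0.253. *Nrg1* was the lowest ligand in 7 of 9 tumors and *Ereg* in the other 2. The rare ligands also varied most from tumor to tumor within groups. Their biological coefficient of variation was 91.1% for *Ereg*, 69.0% for *Btc* and 94.4% for *Nrg1*, against 34.1% to 50.9% for the other 6 tested ErbB genes and 49.8% over all genes. The neighbours *Areg* and *Hbegf* in this order of levels exchanged places between tumors, and so did *Ereg* and *Btc*.

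The ErbB genes lie on 7 chromosomes in GRCm38 (GENCODE M21 annotation). *Egfr* is at chromosome 11, 16752203 to 16918158, and *Erbb2* is on the same chromosome at 98412470 to 98437716. *Tgfa* is at chromosome 6, 86195223 to 86275719, and *Erbb3* is at chromosome 10, 128567523 to 128589652. A group of 3 ligands sits on chromosome 5. *Ereg* is at 91074622 to 91093646, *Areg* follows at 91139599 to 91148432 after 45953 bases, and *Btc* lies on the other strand at 91357261 to 91402994 after a further 208829 bases. The counts cover whole genes, exons of all transcripts together, so no isoform is resolved. The strand setting of the counting is not given in the sources used here. Reads of *Nrg1* and of *Gm26578*, a noncoding gene on the opposite strand, may therefore be mixed. *Nrg1* had 470 counts over the 9 tumors and *Gm26578* had 262, which makes the values of *Nrg1* uncertain. For *Egfr* and *Erbb2* the counts of opposite-strand genes were small beside their own, with 51 for *Egfros* against 7437 and 1097 for *Mien1* against 35592.

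Promoters from RefSeq (GRCm38.p6, 300 bases around the start of the gene) were found for 6 of the 10 genes, *Erbb4*, *Areg*, *Btc*, *Tgfa*, *Egfr* and *Erbb2*. The sequences of *Areg*, *Tgfa*, *Egfr* and *Erbb2* are shown because these genes had an unadjusted p under 0.05 in at least 1 comparison below. Each is written 5′ to 3′ on the strand of the gene, and capitals mark matches on either strand to the cyclic AMP response element (TGACGTCA), the AP-1 motif (TGANTCA), the GC box (GGGCGG) or the TATA box (TATAAA).
Areg, chr5:91139349-91139648, plus strand: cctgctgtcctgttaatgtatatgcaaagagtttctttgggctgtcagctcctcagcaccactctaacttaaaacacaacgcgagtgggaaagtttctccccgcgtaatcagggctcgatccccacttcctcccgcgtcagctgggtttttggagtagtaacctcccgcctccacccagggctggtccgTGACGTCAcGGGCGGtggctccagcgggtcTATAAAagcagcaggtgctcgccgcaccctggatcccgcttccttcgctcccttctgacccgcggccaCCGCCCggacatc
Tgfa, chr6:86194972-86195271, plus strand: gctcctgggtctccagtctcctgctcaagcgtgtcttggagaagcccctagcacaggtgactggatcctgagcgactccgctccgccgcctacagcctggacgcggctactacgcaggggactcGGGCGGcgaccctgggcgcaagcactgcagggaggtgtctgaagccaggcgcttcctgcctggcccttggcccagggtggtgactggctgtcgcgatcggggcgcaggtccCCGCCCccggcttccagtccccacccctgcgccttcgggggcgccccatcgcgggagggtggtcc
Egfr, chr11:16751953-16752252, plus strand: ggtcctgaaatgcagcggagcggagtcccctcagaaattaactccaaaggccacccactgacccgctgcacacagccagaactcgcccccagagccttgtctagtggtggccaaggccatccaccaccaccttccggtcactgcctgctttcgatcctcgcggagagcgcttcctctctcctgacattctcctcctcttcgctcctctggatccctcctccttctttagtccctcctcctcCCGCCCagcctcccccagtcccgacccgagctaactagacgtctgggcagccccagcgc
Erbb2, chr11:98412234-98412533, plus strand: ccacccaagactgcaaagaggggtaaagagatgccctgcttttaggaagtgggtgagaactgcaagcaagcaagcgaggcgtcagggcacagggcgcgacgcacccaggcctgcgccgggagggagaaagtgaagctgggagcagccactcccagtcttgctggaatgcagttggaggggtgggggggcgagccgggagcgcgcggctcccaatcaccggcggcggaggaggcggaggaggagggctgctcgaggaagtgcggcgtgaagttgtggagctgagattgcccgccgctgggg
The *Areg* promoter held 1 cyclic AMP response element, with 1 of its 2 GC boxes starting 1 base after it, and 1 TATA box. The full cyclic AMP response element was found in 1.79% of 32851 mouse promoters of the same length, the TATA box in 13.6% and the GC box in 35.7%. The *Tgfa* window held 2 GC boxes and the *Egfr* window 1, without a TATA match. No AP-1 match, which 7.81% of promoters had, was found in any of the 6 windows, and those of *Erbb2*, *Btc* and *Erbb4* had no match to any of the 4 motifs. These are matches of letters only.

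*Egfr* was lower in NanoTLZ than in saline tumors. Its levels were 102.0, 40.8 and 40.8 CPM in saline tumors 1, 2 and 3, 31.6, 48.6 and 50.8 CPM after i.v. TLZ and 23.3, 26.3 and 24.1 CPM after NanoTLZ. The 3 NanoTLZ tumors lay close together and below the other 6, while i.v. TLZ and saline overlapped. The log2 fold change of NanoTLZ against saline was -1.32 ± 0.39 (SE, n = 3 per group), with an unadjusted p of 0.00714 and an adjusted p of 0.552 (edgeR, Benjamini-Hochberg over all tested genes). This was the smallest unadjusted p of any ErbB gene, but it did not pass the adjusted threshold. Saline tumor 1 weighed on its size. Without that tumor the log2 fold change was -0.70 (unadjusted p = 0.0399, adjusted p = 0.493 in edgeR), and the change after i.v. TLZ moved from -0.49 ± 0.39 to 0.11. The log2 level of *Egfr* had Pearson correlations over the 9 tumors of -0.70 with the T and NK cell genes, -0.64 with the macrophage genes and 0.65 with the luminal genes, whose part in it was not tested.

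*Erbb2* was lower in each of the 6 treated tumors than in each saline tumor, by a narrow margin. It was at 228, 355 and 229 CPM in saline, at 219, 185 and 87.7 CPM after i.v. TLZ and at 152, 189 and 157 CPM after NanoTLZ. The highest treated tumor, i.v. TLZ tumor 1, was only just under the lowest saline tumor, and with upper quartile normalization they no longer separated. Against saline, i.v. TLZ gave a log2 fold change of -0.72 ± 0.36 (adjusted p = 0.513 in edgeR) and NanoTLZ gave -0.70 ± 0.36 (adjusted p = 0.573 in edgeR). For the mean of both treatments against saline it was -0.71 ± 0.30, with an unadjusted p of 0.0404 and an adjusted p of 0.363 in edgeR. Saline tumor 2 weighed on all 3 values, which were -0.48, -0.46 and -0.47 without it, and the i.v. TLZ value was -0.41 without i.v. TLZ tumor 3. The correlation of *Erbb2* with the skeletal muscle genes was 0.65, and their part in its values was not tested.

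*Erbb3* had 131, 139 and 249 CPM in saline, 69.0, 84.2 and 178 CPM after i.v. TLZ and 77.6, 143 and 76.0 CPM after NanoTLZ. Saline tumor 3 was highest, and both treated groups overlapped saline through 1 tumor each. The log2 fold changes were -0.65 ± 0.44 after i.v. TLZ and -0.80 ± 0.44 after NanoTLZ, with adjusted p-values of 0.607 and 0.589 in edgeR. Without saline tumor 3 they were -0.28 and -0.42, with adjusted p-values of 0.873 and 0.844 in edgeR. Across the 9 tumors the log2 level of *Erbb3* had a Pearson correlation of 0.80 with the mean log2 level of the proliferation genes, a description over tumors of 3 groups that share the treatment contrast. With the skeletal muscle genes it was 0.62, and saline tumor 3 was the highest in *Erbb3* and in both lists. The part of either list in the values of *Erbb3* was not tested.

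*Erbb4* was counted 0, 1 and 89 times in saline tumors 1, 2 and 3, 1, 6 and 1 times after i.v. TLZ and 1, 0 and 1 times after NanoTLZ. By counting error alone, 3 counts or fewer cannot be told from 0 at this depth, and 7 of the 9 tumors did not exceed that. The gene failed the filter and was not tested. Saline tumor 3 also had the highest *Nrg1*, *Erbb3* and *Tgfa* of all 9 tumors, and its summed skin keratinocyte markers were 509 CPM against 14.8 to 84.2 CPM in the other 8. Most of that sum was 1 gene, *Krt79*, with 10594 counts, whereas no other gene of the list exceeded 377 counts in any tumor. Its summed basal markers, at 3808 CPM, were also the highest of the 9 tumors. Whether keratinocytes or basal cells contributed to the *Erbb4* counts was not tested.

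The 4 receptors added up to 74.5, 94.8 and 89.1 CPM per kb in the saline tumors, to 56.3, 53.8 and 50.8 after i.v. TLZ and to 44.1, 62.5 and 45.0 after NanoTLZ. In this sum every treated tumor was below every saline tumor. It is dominated by *Erbb2* and *Erbb3* and was formed after their values had been seen, so it is given without a test.

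*Hbegf*, at chromosome 18, 36504927 to 36515805, was the ligand with the clearest separation after i.v. TLZ. It was at 34.9, 93.8 and 22.9 CPM in saline, at 108, 325 and 135 CPM after i.v. TLZ and at 81.2, 152 and 67.4 CPM after NanoTLZ. Every i.v. TLZ tumor was above every saline tumor, whereas NanoTLZ overlapped saline through saline tumor 2. With i.v. TLZ the log2 fold change was 1.90 ± 0.61, with an unadjusted p of 0.0105 and an adjusted p of 0.429 in edgeR. With NanoTLZ it was 0.99 ± 0.59 (adjusted p = 0.616 in edgeR). Saline tumor 2 and i.v. TLZ tumor 2, the highest tumors of their groups, pulled in opposite directions. The i.v. TLZ value was 2.71 without the former and 1.26 without the latter, where the unadjusted p was 0.0562 and the adjusted p was 0.534 in edgeR. The NanoTLZ value was 1.79 (adjusted p = 0.221 in edgeR) without saline tumor 2 and 0.58 (adjusted p = 0.871 in edgeR) without NanoTLZ tumor 2.

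*Areg* had 13.8, 36.1 and 10.4 CPM in saline, 38.7, 75.3 and 31.5 CPM after i.v. TLZ and 34.5, 21.2 and 18.3 CPM after NanoTLZ. Saline tumor 2 lay inside the i.v. TLZ range, and the other saline tumors were below all 6 treated tumors. For i.v. TLZ it had a log2 fold change of 1.27 ± 0.52 (unadjusted p = 0.0359, adjusted p = 0.457 in edgeR) and for NanoTLZ 0.29 ± 0.52 (adjusted p = 0.874 in edgeR). Without i.v. TLZ tumor 2 the former was 0.80 and without saline tumor 2 it was 2.0, with adjusted p-values of 0.633 and 0.193 in edgeR. The latter was 1.03 without saline tumor 2, 0.11 without saline tumor 1 and 0.0063 without saline tumor 3.

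*Ereg* was counted less, at 0.629, 5.77 and 1.84 CPM in saline, 0.969, 27.8 and 4.54 CPM after i.v. TLZ and 1.25, 6.39 and 5.28 CPM after NanoTLZ. Only i.v. TLZ tumor 2 was far above the rest. The difference of i.v. TLZ from saline, 2.01 ± 1.16 on the log2 scale (adjusted p = 0.557 in edgeR), rested on that tumor and was 0.0012 without it. After NanoTLZ it was 0.64 ± 1.13.

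*Tgfa* was lower after NanoTLZ. It was at 56.8, 61.4 and 122 CPM in saline, at 42.2, 68.6 and 33.2 CPM after i.v. TLZ and at 46.7, 45.6 and 31.8 CPM after NanoTLZ. All 3 NanoTLZ tumors were under the lowest saline tumor, and i.v. TLZ tumor 2 was above 2 of the 3 saline tumors. NanoTLZ had a log2 fold change of -0.96 ± 0.39 (unadjusted p = 0.0330, adjusted p = 0.552 in edgeR) and i.v. TLZ one of -0.74 ± 0.39 (adjusted p = 0.521 in edgeR). Without saline tumor 3 these values were -0.49 (adjusted p = 0.793 in edgeR) and -0.29 (adjusted p = 0.817 in edgeR). The log2 level of *Tgfa* had a Pearson correlation over the 9 tumors of -0.84 with the macrophage genes, -0.66 with the T and NK cell genes, 0.78 with the skeletal muscle genes, 0.72 with the Schwann cell genes and 0.65 with the proliferation genes. Saline tumor 3 had the highest *Tgfa* and the highest mean log2 levels of the skeletal muscle, Schwann cell and proliferation genes. It also had the lowest mean log2 level of the macrophage genes. The coefficients were not computed without that tumor, and the groups share the treatment contrast. The part of these lists in the lower *Tgfa* was not tested.

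*Btc* was at 1.20, 7.86 and 4.86 CPM in saline, at 2.28, 6.29 and 1.03 CPM after i.v. TLZ and at 1.93, 3.11 and 1.29 CPM after NanoTLZ. The groups overlapped, with log2 fold changes of -0.54 ± 0.79 and -1.14 ± 0.80. *Nrg1* was at 0.286, 0.191 and 7.02 CPM in saline, at 3.54, 6.61 and 1.79 CPM after i.v. TLZ and at 1.40, 0.600 and 2.12 CPM after NanoTLZ. Its saline group was split, with 5 and 4 counts in tumors 1 and 2 and 153 in tumor 3. With all tumors the log2 fold changes of *Nrg1* were 0.67 ± 1.15 after i.v. TLZ and -0.86 ± 1.17 after NanoTLZ. Without saline tumor 3 they were 4.05 (unadjusted p = 0.00119, adjusted p = 0.341 in edgeR) and 2.53 (unadjusted p = 0.0139, adjusted p = 0.681 in edgeR), so that the direction after NanoTLZ depended on that tumor. The correlation of *Nrg1* was 0.74 with the Schwann cell genes, 0.71 with the hormone-sensing luminal genes and 0.66 with the skin keratinocyte genes, whose part in its values was not tested. Saline tumor 3 was the highest in *Nrg1* and in the mean log2 levels of the Schwann cell and skin keratinocyte genes.

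**Figure D2:**
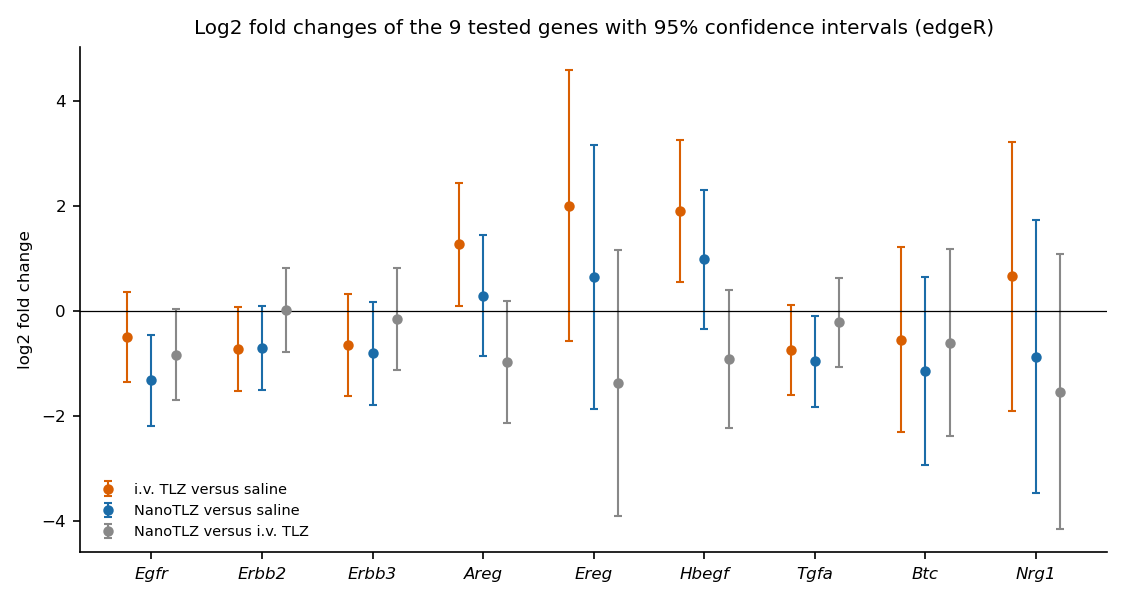
Log2 fold changes (vertical axis) of the 9 tested ErbB genes in i.v. TLZ against saline (orange), NanoTLZ against saline (blue) and NanoTLZ against i.v. TLZ (grey), with 95% confidence intervals from edgeR and n = 3 per group. The intervals leave out 0 for *Hbegf* and *Areg* after i.v. TLZ and for *Egfr* and *Tgfa* after NanoTLZ, before adjustment for the number of genes tested.

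Counted together, no ErbB gene passed an adjusted p under 0.05 in edgeR after i.v. TLZ (0 of 9), where 0% of all 15821 tested genes did. An unadjusted p under 0.05 was reached by 2 of 9 ErbB genes, *Hbegf* and *Areg*, against 10.4% of all genes. *Hbegf* was the only ErbB gene higher in every i.v. TLZ than in every saline tumor, against 5.99% of all genes, and *Erbb2* the only one lower in this way, against 5.2% of all genes. After NanoTLZ, 0 of 9 passed the adjusted threshold, against 0.00632% of all genes, and 2 of 9, *Egfr* and *Tgfa*, had an unadjusted p under 0.05, against 8.99%. In that comparison *Egfr*, *Tgfa* and *Erbb2* were lower without overlap, 3 of 9 against 8.13% of all genes. DESeq2 and limma-voom also called 0 of the ErbB genes in each comparison. Over all genes DESeq2 on all tumors called 194 (i.v. TLZ), 110 (NanoTLZ), 3 (NanoTLZ against i.v. TLZ) and 273 (mean of both). For the mean limma-voom called only 1 gene, so its 0 adds little. The median log2 fold change of the 9 genes was -0.49 after i.v. TLZ and -0.80 after NanoTLZ, beside -0.03 and -0.09 over all tested genes. The medians hide the opposite signs of the members. *Areg*, *Ereg* and *Hbegf* had fold changes above 0 in both treatments and the 3 tested receptors, *Tgfa* and *Btc* had them below 0. Both comparisons used the same saline tumors, so the shared signs are not independent.

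For the mean of both treatments against saline, 0 of 9 ErbB genes passed the adjusted threshold in edgeR, against 0.019% of all genes. An unadjusted p under 0.05 was reached by 4 of 9, *Egfr*, *Hbegf*, *Tgfa* and *Erbb2*, against 13.1% of all genes. The log2 fold changes were -0.90 ± 0.32 for *Egfr*, 1.45 ± 0.54 for *Hbegf* and -0.85 ± 0.32 for *Tgfa*, with adjusted p-values of 0.310, 0.330 and 0.334 in edgeR. Single saline tumors moved these values. *Egfr* was at -0.30 without saline tumor 1 (adjusted p = 0.642 in edgeR) and *Tgfa* at -0.39 without saline tumor 3 (adjusted p = 0.701 in edgeR). *Hbegf* was at 1.12 without saline tumor 3 (adjusted p = 0.568 in edgeR) and at 2.25 without saline tumor 2 (adjusted p = 0.109 in edgeR). *Erbb2* was the only one of the 9 without overlap, lower in each treated tumor, against 2.66% of all genes.

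The 2 formulations were given at the same dose and schedule and can be compared directly. No ErbB gene differed between NanoTLZ and i.v. TLZ at an adjusted p under 0.05 (0 of 9 in edgeR, against 0% of all genes), and 0 of 9 had an unadjusted p under 0.05, against 1.68% of all genes. *Egfr* came nearest. It was lower in every NanoTLZ than in every i.v. TLZ tumor, as were 4.41% of all genes, with a log2 fold change of -0.83 and a 95% confidence interval of -1.69 to 0.03 (adjusted p = 0.9999 in edgeR). For *Erbb2* the difference was 0.02 with an interval of -0.78 to 0.82. For *Hbegf* it was -0.92 with an interval of -2.23 to 0.40, and for *Areg* it was -0.98 with an interval of -2.14 to 0.18. These intervals are wide, and a missed threshold does not show that the formulations act alike on these genes.

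The makeup of the ligand RNA was compared within each tumor, as shares of the summed CPM per kb, which does not depend on the scaling between libraries. *Tgfa* made up 15.3% to 55.0% of it in saline tumors, 7.12% to 10.5% after i.v. TLZ and 12.1% to 13.7% after NanoTLZ. The highest *Tgfa* share after treatment was thus below the lowest in saline. Shares within a tumor make up a fixed total, so more *Hbegf* or *Areg* lowers that of *Tgfa*, and the shares are not independent. I.v. TLZ tumor 2 had the lowest *Tgfa* share, 7.12%, at a *Tgfa* level of 68.6 CPM, beside 56.8, 61.4 and 122 CPM in saline. No background over other genes was formed for these shares. The *Hbegf* share was 13.8% to 31.4% in saline, 36.2% to 46.1% after i.v. TLZ and 31.6% to 54.1% after NanoTLZ, higher in all treated tumors, though NanoTLZ tumor 1 hardly exceeded saline tumor 2. With the longest transcript in place of all exons as the length of each gene, the *Hbegf* shares were 17.05% to 41.0% in saline and 41.4% to 63.8% in treated tumors, and the groups stayed apart in the same order. The *Areg* share overlapped between all groups, at 24.8% to 53.3%.

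The ratio of *Hbegf* to *Tgfa* counts, which needs neither a scaling nor a length to order the tumors, was 0.614, 1.53 and 0.187 in saline. It was 2.56, 4.74 and 4.06 after i.v. TLZ and 1.74, 3.34 and 2.12 after NanoTLZ. The lowest treated tumor was above the highest saline tumor. This ratio was picked after the values were seen. Among the 36 ratios that the 9 tested genes form, 6 separated treated from saline tumors in this way, beside 5.58% of all ratios of 2 tested genes, taken over the 15353 genes with counts in every tumor. Ratios that share a gene are not independent, and 5 of these 6 held *Hbegf*, against *Egfr*, *Erbb2*, *Erbb3*, *Tgfa* or *Btc*. The remaining one was *Erbb2* to *Areg*, at 9.83 to 22.04 in saline and 2.45 to 8.94 in treated tumors. The summed ligand level overlapped between groups, at 27.8 to 61.8 CPM per kb in saline, 60.4 to 149 after i.v. TLZ and 35.7 to 58.2 after NanoTLZ.

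**Figure D3:**
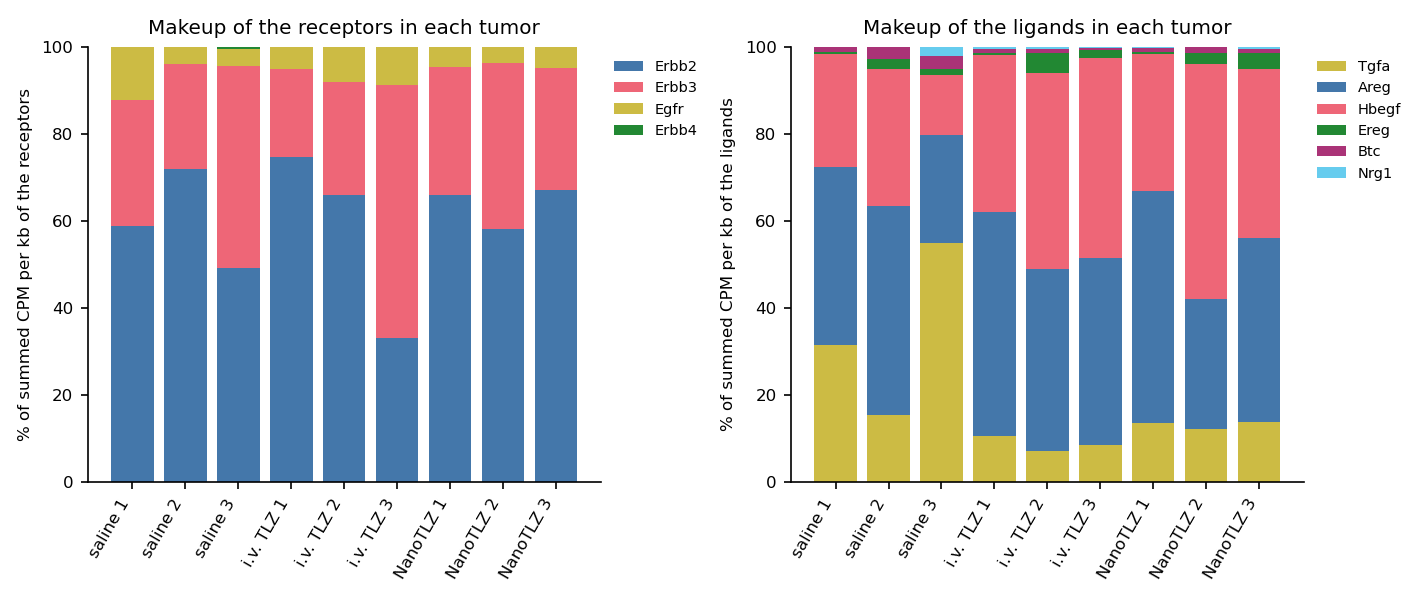
Makeup of receptor RNA (left) and ligand RNA (right) in each of the 9 tumors, as percent of the summed CPM per kb of exon of the 4 receptors or the 6 ligands (stacked bars from 0 to 100). The *Tgfa* segment was between 7.12% and 13.7% in the 6 treated tumors and between 15.3% and 55.0% in the saline tumors, while *Erbb2* and *Erbb3* held most of the receptor RNA in every tumor.

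Over the 9 tumors, *Areg* and *Hbegf* had the highest correlation of log2 CPM of any pair of ErbB genes, with a Pearson coefficient of 0.88 and a Spearman coefficient of 0.73. *Ereg* and *Hbegf* followed at 0.72, *Tgfa* and *Btc* at 0.69 and *Erbb2* and *Btc* at 0.67. The neighbouring genes *Areg* and *Ereg* had 0.54. The 3 pairs of tested receptors had 0.04 to 0.39. These coefficients describe 9 tumors that share the treatment groups, and i.v. TLZ tumor 2 was at the top for *Areg*, *Ereg* and *Hbegf* alike. *Hbegf* and *Areg* had correlations of -0.78 and -0.72 with the proliferation genes, which were lower in the treated tumors. With the skeletal muscle genes, also lower there, the coefficients were -0.70 and -0.51, and *Hbegf* had -0.67 with the basal genes. The part of these lists in the values of the ligands was not tested.

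Outside the family, the genes most like each member over the 9 tumors were found by the Pearson correlation of log2 CPM. *Ppp1r15a*, a stress-induced phosphatase subunit also known as Gadd34, was among the 3 nearest to both *Hbegf* (0.96) and *Areg* (0.93). The nearest of all were *Pdgfa* for *Areg* (0.96), *Prr36* for *Ereg* (0.94) and *Uqcrc2* for *Tgfa* (0.98). For the receptors they were *Yipf6* for *Egfr* (0.96), *Lekr1* for *Erbb2* (0.96) and *Dazap1* for *Erbb3* (0.96), and for the remaining ligands *Ccdc189* for *Btc* (0.96) and *Dok7* for *Nrg1* (0.95). With 15821 genes and 9 tumors, coefficients of this size describe the likeness only.

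Of the 5 other EGF-like ligand genes, *Egf*, *Epgn*, *Nrg2* and *Nrg4* were tested, while *Nrg3* had 5 counts in all. In every comparison 0 of the 4 tested were called in edgeR, against at most 0.019% of all genes. An unadjusted p under 0.05 was reached by 0 of the 4 in any comparison, against 1.68% to 13.1% of all genes by comparison. *Egf*, the founding ligand, had the lowest value of this list for the mean of both treatments, -1.03 ± 0.69 on the log2 scale. It was at 3.30 CPM in saline tumor 3 and at 0.216 to 1.58 CPM in the other 8 tumors, and without that tumor the value was 0.0039. *Epgn* (epigen), the neighbour of *Ereg* on chromosome 5, was at 0.458, 1.95 and 0.642 CPM in saline, at 0.582, 2.68 and 0.703 CPM after i.v. TLZ and at 0.337, 0.382 and 2.38 CPM after NanoTLZ. Like *Areg*, *Ereg* and *Hbegf*, it was highest in i.v. TLZ tumor 2, without a separation of groups. Of 6 genes that release ligands from the membrane, 0 were called in edgeR in any comparison and 0 had an unadjusted p under 0.05, against the same shares. For the mean of both treatments, *Adam17*, the main protease for *Areg*, *Hbegf* and *Tgfa* proteins, had a log2 fold change of -0.36 ± 0.31, which was -0.04 without saline tumor 1, and *Rhbdf2*, which carries that protease to the cell surface, had 0.54 ± 0.40, which was 0.16 without saline tumor 3 and 1.09 without saline tumor 2. Of 16 genes that restrain or turn over the receptors, 0 were called in edgeR. In the mean of both treatments 2 of the 16 had an unadjusted p under 0.05, against 13.1% of all genes. Of 28 adaptor and kinase genes 0 were called and 1 had such a p in that comparison, against the same 13.1%. DESeq2 on all tumors and limma-voom, whose counts over all genes are given above, also called 0 genes of these lists and of the list of ERK-responsive genes below. *Lrig3* had the lowest value of the 16 genes, -1.51 ± 0.66 (unadjusted p = 0.0465, adjusted p = 0.372 in edgeR), with 27.2 CPM in saline tumor 3 and 2.17 to 8.24 CPM in the other 8 tumors. Without saline tumor 3 its value was 0.10 (adjusted p = 0.964 in edgeR). The highest was *Cblc*, a ubiquitin ligase, at 0.48 ± 0.35 (0.26 without saline tumor 3 and 0.78 without saline tumor 2), and the lowest of the kinase list was *Hras* at -0.95 ± 0.54, which turned to 0.39 without saline tumor 3.

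The ligands were highest as a group in 1 tumor. I.v. TLZ tumor 2 had the highest *Areg*, *Ereg* and *Hbegf* of all 9 tumors and was second to 1 saline tumor in *Tgfa*, *Btc* and *Nrg1*. Its receptors were within the saline range for *Egfr*, at 48.6 CPM, and below it for *Erbb2* and *Erbb3*, at 185 and 84.2 CPM. The *Hbegf* and *Areg* changes without this tumor are given above, and each of the other i.v. TLZ tumors still had more *Hbegf* than any saline tumor.

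Of 19 genes that respond to ERK signaling, 0 were called in any comparison in edgeR. For the mean of both treatments 1 of them had an unadjusted p under 0.05 in each direction, *Fosl1* higher and *Dusp6* lower (-0.86 ± 0.31, named after its value was seen), 2 of 19 beside 13.1% of all genes, and the median of the list was -0.09 beside -0.06 over all genes. *Fosl1*, an AP-1 subunit, was at 15.7, 27.9 and 2.43 CPM in saline, at 37.5, 38.9 and 67.7 CPM after i.v. TLZ and at 51.9, 56.0 and 33.9 CPM after NanoTLZ. Its groups did not overlap, with every treated tumor above saline, as for 2.81% of all genes, and a log2 fold change of 1.64 ± 0.61 (unadjusted p = 0.0236, adjusted p = 0.329 in edgeR). *Dusp6* separated in the other direction, as did 2.66% of all genes (unadjusted p = 0.0197, adjusted p = 0.310 in edgeR). It was at 228 to 398 CPM in saline and 106 to 217 CPM in the treated tumors. *Egr1*, an immediate early gene, was at the other end of the list with -1.05 ± 0.57 (adjusted p = 0.449 in edgeR) and overlapping groups. Without saline tumor 3 the values were 1.15 for *Fosl1*, -0.54 for *Dusp6* and -0.19 for *Egr1*, and without saline tumor 2 that of *Fosl1* was 2.39. Against saline the list therefore had no common direction. For NanoTLZ against i.v. TLZ, 17 of the 19 had values below 0, while 45.6% of all genes were above 0. The median there was -0.35 beside -0.04 over all genes. In that comparison 0 of the 19 had an unadjusted p under 0.05, against 1.68% of all genes.

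**Figure D4:**
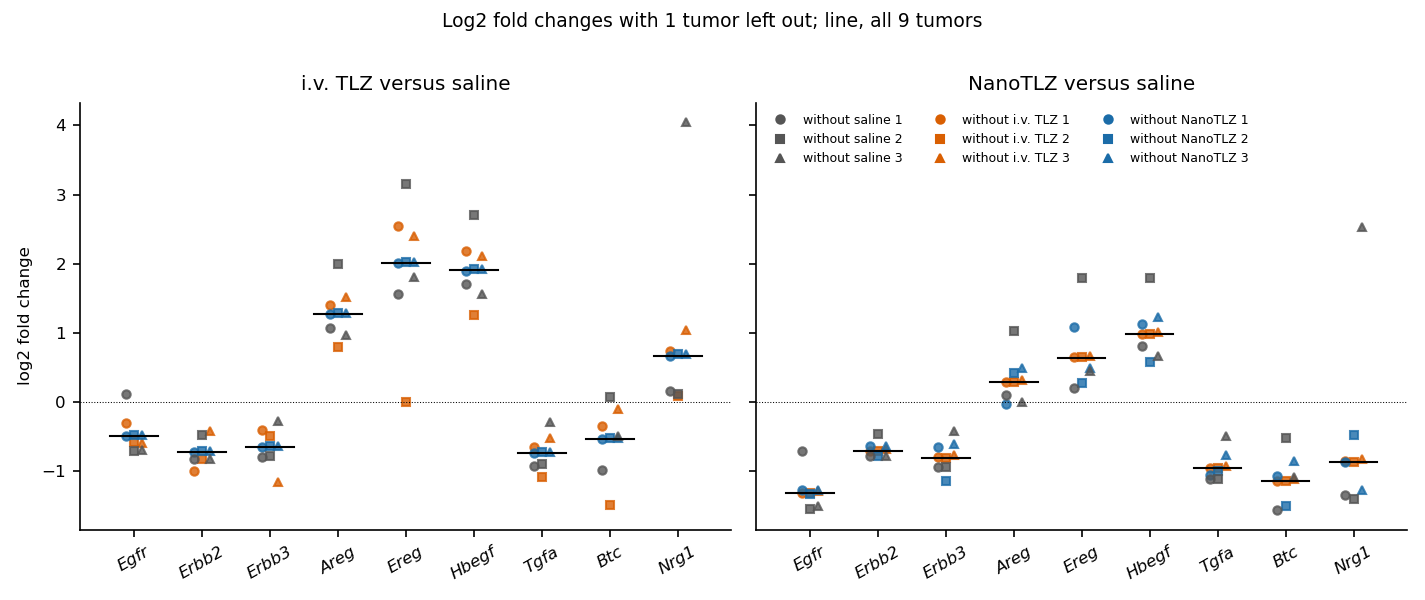
Log2 fold changes (vertical axes) of the 9 tested ErbB genes against saline, for i.v. TLZ (left) and NanoTLZ (right), with 1 tumor left out at a time; symbols name the tumor left out and black lines give the value with all 9 tumors. *Hbegf* stayed between 1.26 and 2.71 after i.v. TLZ and *Egfr* between -1.54 and -0.70 after NanoTLZ, whereas *Ereg* and *Nrg1* moved by more than 2 units with a single tumor.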

How the data were processed

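RNAseq was performed on 9 tumors, 3 per group. The authors deposited raw counts of reads per gene for each tumor, without normalization, made by Novogene. The submitters' processing notes name TopHat2, DESeq2 and mm10. The counting program, annotation and strand setting are not given in the sources used here. All 9 columns were mapped to tumors by title, and tumors were grouped by the treatment label and numbered in the order of the records. Totals were 17538380 to 21194980 counts per tumor, and floors cover counting error only. Of 35275 identifiers, 34490 were found in GENCODE M21 and 785 were not.

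Counts were filtered with filterByExpr (minimum count 10, minimum total 15), scaled by TMM and fitted in edgeR 4.0.16 (R 4.3.3) by glmQLFit, with 1 coefficient per group over all 9 tumors, and glmQLFTest was run on each contrast, with Benjamini-Hochberg adjustment over 15821 genes and a threshold of 0.05. SEs were taken from the fold change and its F statistic. Correlations used log2 CPM with a prior count of 2. Levels per kb used the union of exons. The steps were tested on simulated data. Alternatives were DESeq2 1.42.0, limma-voom (limma 3.58.1), edgeR on the groups compared, RLE, upper quartile or no scaling beyond total counts, other filters, robust dispersion, the longest transcript as length, and each tumor left out. Figures used matplotlib 3.10.9 under Python 3.11.15.

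The named genes were the 10 ErbB genes, the 3 genes most correlated with each (of which those nearest or shared are named), the genes called in each pathway list or else its highest and lowest fold change (given where they bear on the family), and *Brca1*. Of the genes this rule selects, 2 are not reported here. The ErbB genes, the pathway and marker lists and these rules were chosen with earlier results of these data known.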

Additional observations from a re-analysis of the deposited data

How the results depend on the processing

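The count of ErbB genes called was 0 in all 4 comparisons under every alternative run, including DESeq2, limma-voom and each tumor left out. With upper quartile normalization the number of ErbB genes without overlap fell from 2 to 1 for i.v. TLZ and from 1 to 0 for the mean of both treatments. With 1 tumor left out it was 2 to 4 for i.v. TLZ against saline, 3 to 5 for NanoTLZ against saline, 1 to 3 for NanoTLZ against i.v. TLZ and 1 to 3 for the mean. Fewer tumors make it easier for groups not to overlap, and the same share of all genes was not taken. These ranges therefore do not show a firmer separation. limma-voom turned *Nrg1* from -0.86 to 0.63 after NanoTLZ and from -0.10 to 1.37 for the mean, and the cause was not tested. Some directions turned with 1 tumor left out. Against saline the log2 fold changes then ranged from -0.024 to 1.03 for *Areg* after NanoTLZ, from -1.49 to 0.073 for *Btc* after i.v. TLZ, from -0.71 to 0.11 for *Egfr* after i.v. TLZ, from -1.41 to 2.53 for *Nrg1* after NanoTLZ and from -0.64 to 3.29 for *Nrg1* in the mean. For NanoTLZ against i.v. TLZ they ranged from -1.01 to 0.35 for *Btc*, -0.26 to 0.29 for *Erbb2*, -0.50 to 0.39 for *Erbb3*, -1.91 to 0.65 for *Ereg* and -0.41 to 0.14 for *Tgfa*. Of the other comparisons of ErbB genes none changed direction. Over all genes, the count called was 0 (i.v. TLZ), 1 (NanoTLZ), 0 (NanoTLZ against i.v. TLZ) and 3 (mean) in edgeR. It was 194, 110, 3 and 273 with DESeq2 on all tumors, and 92, 170 and 21 with DESeq2 on the groups compared. Without the filter it was 5, 6, 0 and 33. It was 0 for NanoTLZ with edgeR on the groups compared, and 1 for the mean with at least 10 counts in every tumor or with limma-voom. With 1 tumor left out it was 0 to 3 for NanoTLZ and 0 to 18 for the mean. With 3 tumors per group and few counts of *Nrg1*, *Ereg* and *Btc*, the intervals of these genes are wide. No paired analysis was possible because the labels carry no replicate numbers that tumors of different groups share.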
